A study of Mus musculus with 12 samples.

Results

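The striatum of mice that carried both an expanded Huntington's disease gene and no mGluR5 receptor was compared with the striatum of mice that carried neither change. The double mutants were homozygous for the Q111 knock-in allele and null for the receptor (HdhQ111/Q111/mGluR5-/-), and the double controls were homozygous for the Q20 allele with both receptor copies (HdhQ20/Q20/mGluR5+/+). These groups held 3 arrays each, or 6 of the 12 arrays of the study. The other 6 arrays came from mice with 1 change alone: 3 had the Q20 allele without mGluR5 (receptor loss alone) and 3 had the Q111 allele with mGluR5 (Q111 alone). All mice were males of 90 days, and the background was given as a mix of 129, CD-1, C57BL/6 and FV. No group lacked a knock-in allele, since the controls also carried one, with a short repeat, on both chromosomes. The whole change from double control to double mutant was measured for each gene, and was then set against the sum of the changes found with receptor loss alone and with Q111 alone. The difference between the double mutant change and that sum is called the deviation.

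Huntingtin with a long glutamine repeat is most harmful to the projection neurons of the striatum, which use GABA and form the direct and indirect pathways. The receptor mGluR5, the product of Grm5, is a glutamate receptor that acts through Gq proteins, phospholipase C and calcium release, and it is abundant in these neurons and also present in astrocytes. Knock-in mice carry the repeat in their own Htt gene, so the mutant protein is made wherever Htt is normally active, and the labels name no cell type to which the loss of the receptor was limited.

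RNA abundance was read on whole-transcript arrays as log2 signals, so that a difference of 1 is a 2-fold change. Array medians lay between 7.05 and 7.16. The signals were spread with an interquartile range of 2.80 ± 0.08 (SD, n = 3) in double controls and 2.74 ± 0.07 in double mutants. After low signals were left out, 16721 genes were tested, each through 1 probe set. Since no label states that replicate arrays stand for different animals, the spread behind each p-value is that of these samples and may be technical. Alleles of the mixed background that travel with a genotype cannot be told apart from the genotype. In bulk tissue, fewer cells of a type and less RNA per cell cannot be told apart either. Markers of projection neurons were strong on every array: Ppp1r1b, which encodes DARPP-32, had log2 signals of 11.43 to 11.57 in double controls and 11.49 to 11.60 in double mutants, with a 25th percentile of all signals between 5.69 and 5.94.

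The double mutants differed from the double controls in 93 genes at an adjusted p below 0.05 in limma, which is 0.556% of the genes tested. Of these, 40 were higher (0.239%) and 53 lower (0.317%), 62 differed at least 1.5-fold and 19 at least 2-fold. The median size of the called changes was 0.71 on the log2 scale, with a median standard error of 0.11. In all 93 the 3 double mutant arrays lay wholly on one side of the 3 double control arrays, a pattern found in 2377 of all 16721 genes (14.2%). The number of calls depended on single arrays: it was 55 without double control replicate 2, 49 without replicate 3, 57 without double mutant replicate 2 and 53 without replicate 3, and it rose to 163 without replicate 2 of Q111 alone. Of the 43 genes described before the closing section for a called change, 29 kept the call whichever 1 of the 12 arrays was left out, and the other 14 are marked where they are described. In a linear model without limma's moderation of the variance, 22 of the 43 kept the call and 21 lost it. Among the 29, those lost there were Nat8f4 and Krt12 (adjusted p = 0.0612 each), Dpy19l1 (0.058), Baalc (0.0786), Catspere2 (0.083), Sfrp1 (0.1) and Impg1 (0.0683).

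Grm5 itself was first checked in every array. Its log2 signal was 11.95, 12.08 and 11.97 in double controls and 11.14, 11.09 and 10.98 in double mutants. With receptor loss alone it was 11.06, 10.93 and 11.17, and with Q111 alone 11.96, 12.01 and 11.85. The 6 receptor-null arrays were thus the 6 lowest, and the change of -0.93 ± 0.09 (SE, adjusted p = 6.97e-05) was a fall of 1.90-fold and not to background. Which part of the gene the probes read, and which part was deleted, is not given in the sources used here, so that the remaining signal does not measure intact receptor RNA. Htt, the gene that carries the Q20 or Q111 allele, changed by -0.17 ± 0.08 (adjusted p = 0.732). Of the 200 tested genes nearest to each targeted gene, 1 was called around Grm5 and 1 around Htt, beside 0.556% of all genes. Around Grm5 this was Myo7a, an unconventional myosin of hair cells and retina, which had signals of 7.07, 7.0 and 6.86 in double controls and 7.72, 7.67 and 7.79 in double mutants. It rose by 0.75 ± 0.09 (adjusted p = 0.000855), and its signals with receptor loss alone, 7.79, 7.78 and 7.76, overlapped those of the double mutants. Around Htt it was Sod3, the extracellular superoxide dismutase, which changed by -0.59 ± 0.12 (adjusted p = 0.0305). This call was lost in 7 of the 12 fits that left out 1 array, with adjusted p up to 0.162 without double mutant replicate 1.

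Serpina3n was the gene with the largest rise. It encodes a secreted inhibitor of serine proteases that is widely used as a marker of reactive astrocytes. Its log2 signals were 7.77, 7.76 and 7.97 in double controls and 10.58, 10.61 and 10.45 in double mutants. They were 8.88, 9.18 and 8.78 with receptor loss alone and 8.11, 8.27 and 7.91 with Q111 alone. The double mutant arrays stood more than 1 log2 unit above every other array, and the arrays with receptor loss alone stood between them and the rest. The change was 2.71 ± 0.12 (6.55-fold, adjusted p = 1.16e-08). The single changes were 1.11 for receptor loss alone (adjusted p = 0.000384) and 0.26 for Q111 alone (adjusted p = 0.719). The double mutant therefore lay 1.34 ± 0.17 above the sum of the single changes (adjusted p = 0.00153), a call that the unmoderated model did not make (adjusted p = 0.0548).

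**Figure D1:**
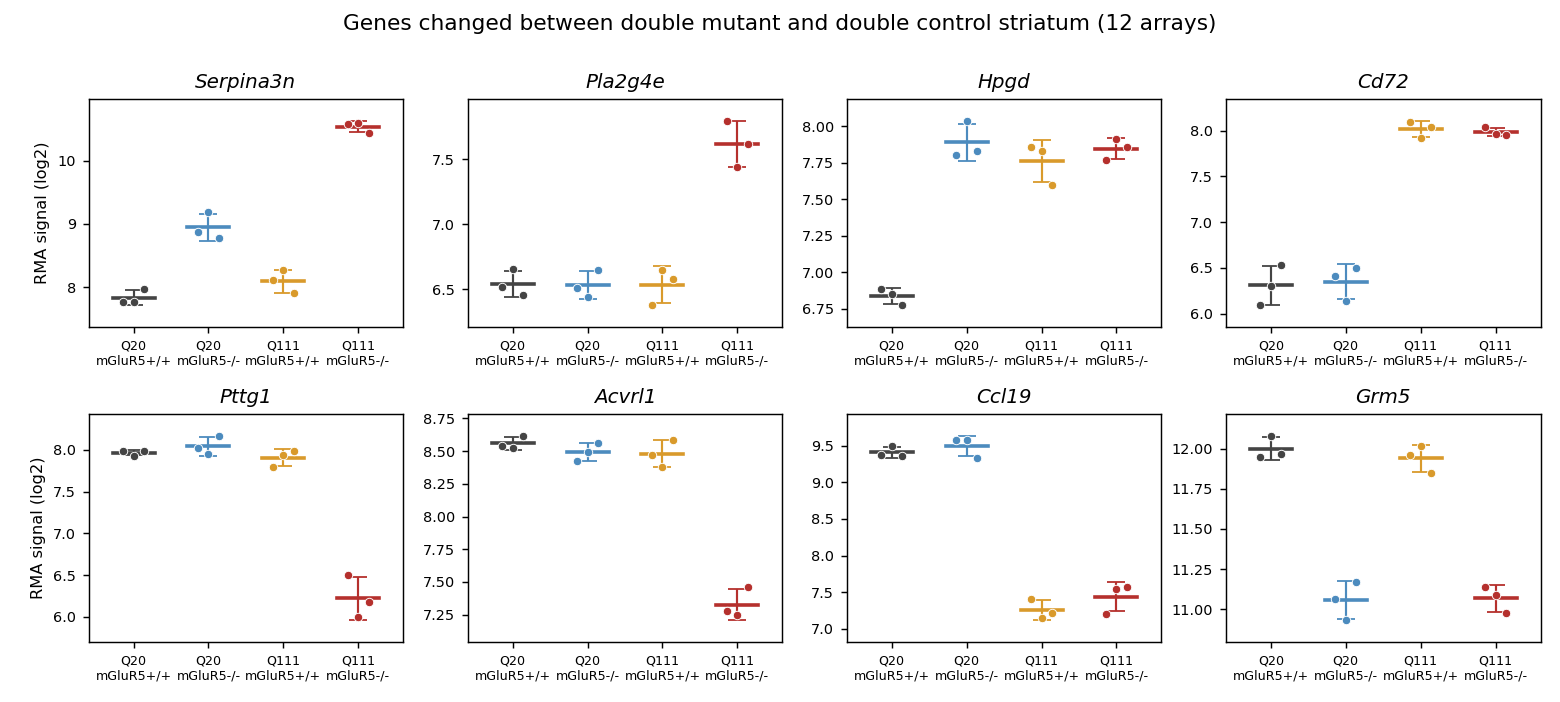
Log2 signal (y axis) of 8 genes in the 3 arrays of each group (x axis). Points are arrays, the thick line is the group mean and the bar is 1 SD. Serpina3n, Pla2g4e, Pttg1 and Acvrl1 have their extreme level in the Q111 mGluR5-/- group, Hpgd is at about 1 level in the 3 groups with any change, Cd72 and Ccl19 follow the Q111 allele, and Grm5 follows the receptor genotype.

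Of 27 tested members of that list, 17 were higher and 10 lower in double mutants, with a median change of 0.03 against -0.005 over all genes, and Serpina3n was the only member called in limma. The median turned to -0.0075 without double mutant replicate 3. Ptx3, a secreted pentraxin with the next smallest p, changed by 0.32 ± 0.13 (adjusted p = 0.536), and was called with gene-by-gene array weights (adjusted p = 0.0365), a fit chosen after seeing the data that called 2.6% of all genes. Gfap, the intermediate filament of astrocytes, had signals of 8.53 to 9.01 in double controls and 8.52 to 8.87 in double mutants, which overlapped. At an unadjusted p below 0.05 stood 4 of the 27, beside 7.09% of all genes. General astrocyte markers had 0 called members of 15 in limma, 0 at an unadjusted p below 0.05 and 0 in the unmoderated model. Their mean level was 9.71 to 9.79 on the double control arrays and 9.68 to 9.77 on the double mutant arrays.

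Genes of lipid mediators included 3 called rises. Phospholipases and eicosanoid enzymes cut arachidonic acid and related lipids from membranes and turn them into prostaglandins and leukotrienes, or remove them. Of 37 tested members 3 rose, Pla2g4e, Hpgd and Gdpd3, beside 0.239% of all genes, and 0 fell. The members were chosen with earlier results of these data known, so this share is a description and no test of the list. The median change of the list was 0.04, and 0.0037 without double control replicate 2. Pla2g4e encodes a cytosolic phospholipase A2 of the epsilon type, which makes N-acyl phosphatidylethanolamines, the precursors of anandamide. Its signals were 6.52, 6.66 and 6.46 in double controls and 7.79, 7.44 and 7.62 in double mutants. The signals were 6.51, 6.44 and 6.65 with receptor loss alone and 6.38, 6.65 and 6.58 with Q111 alone, all below the double mutant arrays. It rose by 1.07 ± 0.11 (adjusted p = 8.8e-05), with a deviation of 1.09 ± 0.16 (adjusted p = 0.00445). The unmoderated model kept the call of the rise and not that of the deviation (adjusted p = 0.0656).

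Hpgd, the dehydrogenase that inactivates prostaglandins, rose to about the same level in all 3 groups with a change. Double controls had signals of 6.89, 6.85 and 6.78, and double mutants 7.77, 7.92 and 7.86. Receptor loss alone gave 7.80, 8.04 and 7.83, and Q111 alone 7.86, 7.83 and 7.60. The change was 1.01 ± 0.10 (adjusted p = 5.67e-05) and the sum of the single changes 1.98, so that the double mutant fell short of that sum by 0.97 ± 0.14 (deviation of -0.97, adjusted p = 0.00462). Gdpd3, a lysophospholipase D that releases lysophosphatidic acid, changed by 1.58 ± 0.32 (adjusted p = 0.0391). Its double control arrays were far apart, at 6.94, 5.70 and 7.71, against 8.50, 8.48 and 8.11 in double mutants, and the call was lost in 8 of the 12 fits that left out 1 array, with adjusted p up to 0.162 without double mutant replicate 1. Lta4h, which makes leukotriene B4, was not called in the double mutant (-0.20 ± 0.18, adjusted p = 0.946). Its deviation of 1.30 ± 0.25 (adjusted p = 0.0371) was lost in 9 of the 12 fits, up to 0.129 without replicate 1 of Q111 alone.

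The stretches before the start sites of Serpina3n, Hpgd and Ccl19 are shown because these genes stand for the patterns found: a change beyond the sum of the single changes, a change short of it, and a change close to it. They are RefSeq sequences of GRCm38.p6, read 5′ to 3′ on the strand of the gene, and hold the bases outside the gene's own span; capitals mark motif matches.
Serpina3n, chr12:104406458-104406645, plus strand: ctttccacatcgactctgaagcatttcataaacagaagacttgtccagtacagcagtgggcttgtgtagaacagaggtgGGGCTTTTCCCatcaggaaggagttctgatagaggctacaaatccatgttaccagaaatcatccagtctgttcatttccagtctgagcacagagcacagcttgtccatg
Hpgd, chr8:56294302-56294551, plus strand: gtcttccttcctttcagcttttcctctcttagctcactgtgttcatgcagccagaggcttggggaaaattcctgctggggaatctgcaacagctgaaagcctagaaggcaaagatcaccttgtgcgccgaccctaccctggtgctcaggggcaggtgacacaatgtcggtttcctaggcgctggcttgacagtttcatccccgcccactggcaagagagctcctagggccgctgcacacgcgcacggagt
Ccl19, chr4:42756366-42756615, minus strand: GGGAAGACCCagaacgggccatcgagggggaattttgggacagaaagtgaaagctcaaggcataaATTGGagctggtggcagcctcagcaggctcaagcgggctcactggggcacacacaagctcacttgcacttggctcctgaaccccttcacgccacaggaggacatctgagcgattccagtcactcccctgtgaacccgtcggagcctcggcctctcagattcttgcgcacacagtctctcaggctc
The letters searched on both strands were TTCNNNGAA for STAT factors, TGANTCA for AP-1 and TGACGTCA for the cyclic AMP response element. TATAAA for the basal promoter element and CCAAT for the factor NF-Y were searched in the same way. So was a loose pattern for NF-kB, which fixes only G bases at its start and C bases at its end. Any base is allowed between them, so a match to this pattern does not show an NF-kB site. The 188 bases of Serpina3n hold overlapping matches to this loose pattern, 1 on each strand. Of all 32851 promoter windows of that length, 34.8% contain the pattern. The 250 bases of Ccl19 hold a match to the loose pattern that reads on both strands, found in 45.8% of windows. They also hold a CCAAT match on the reverse strand, found in 33.8%. No match to any of these motifs was found in the 250 bases of Hpgd.

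Among the other large rises, Cd72, Nat8f4, Dpy19l1 and Fancg had double mutant signals close to those of Q111 alone. Cd72, an inhibitory co-receptor of B cells, had signals of 6.10, 6.31 and 6.53 in double controls and 8.04, 7.97 and 7.95 in double mutants, a rise of 1.68 ± 0.12 (adjusted p = 1.66e-06). Its signals were 8.09, 7.92 and 8.04 with Q111 alone and 6.42, 6.13 and 6.5 with receptor loss alone, and the deviation was -0.07 ± 0.17. Nat8f4, of the N-acetyltransferase 8 family, rose by 1.12 ± 0.15 (adjusted p = 0.00112) beside 1.14 with Q111 alone and 0.00 with receptor loss alone. Dpy19l1, a C-mannosyltransferase, rose by 0.85 ± 0.12 (adjusted p = 0.00237), and Fancg, a DNA repair gene of the Fanconi anaemia group, by 0.75 ± 0.09 (adjusted p = 0.000434). With Q111 alone their changes were 0.81 and 0.53.

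Baalc rose to about the same level in all 3 groups with a change, as Hpgd did. This neural gene, also known from leukaemia, had signals of 8.0, 7.45 and 7.76 in double controls and 8.58, 8.76 and 8.52 in double mutants. It rose by 0.88 ± 0.13 (adjusted p = 0.00345), beside single changes of 0.81 and 0.84, but its deviation of -0.76 ± 0.19 did not pass the test (adjusted p = 0.16). Trappc2l, a subunit of vesicle tethering complexes, rose by 0.95 ± 0.11 (adjusted p = 0.000551). Its double mutant signals of 10.34, 10.24 and 10.26 lay above all 9 other arrays, which ranged from 9.26 to 9.77. Its deviation of 0.79 ± 0.16 was called (adjusted p = 0.0473) and lost in 10 of the 12 fits without 1 array, with adjusted p up to 0.171 without replicate 1 of receptor loss alone. Stk10, a kinase of lymphocytes, and Catspere2, of the sperm calcium channel family, rose by 0.76 ± 0.10 (adjusted p = 0.00102) and 1.18 ± 0.17 (adjusted p = 0.00237). Their deviations of 0.65 ± 0.14 and 0.90 ± 0.23 did not pass (adjusted p = 0.059 and 0.218). The calls of 2 further rises depended on single arrays. Aldh1a1, a retinaldehyde dehydrogenase, changed by 0.75 ± 0.15 (adjusted p = 0.0297, lost in 5 of 12 fits, up to 0.138 without double mutant replicate 2), and Klk6, a kallikrein of oligodendrocytes, by 0.86 ± 0.15 (adjusted p = 0.0141, lost in 4 of 12 fits, up to 0.102 without double control replicate 2).

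Ccl19 showed the largest fall. This chemokine guides T cells and dendritic cells through the receptor CCR7. Its log2 signals were 9.38, 9.49 and 9.36 in double controls and 7.21, 7.55 and 7.57 in double mutants, against 7.40, 7.15 and 7.22 with Q111 alone and 9.57, 9.58 and 9.34 with receptor loss alone. The change was -1.97 ± 0.11 (3.92-fold lower, adjusted p = 1.78e-07), the sum of the single changes -2.06 and the deviation 0.10 ± 0.16. The other probe sets named Ccl19 gave changes of -2.25 to -2.49. RefSeq lists 3 pseudogenes of Ccl19, so that the signal may come from more than 1 copy of the gene. Cdhr1, a cadherin of photoreceptors, fell by 1.89 ± 0.10 (adjusted p = 5.56e-08), from 8.71, 8.95 and 8.75 to 6.87, 6.92 and 6.97, beside -1.82 with Q111 alone.

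In 4 further falls the level of Q111 alone lay near that of the double mutant. H60b, a ligand of the killer cell receptor NKG2D, fell by 1.66 ± 0.19 (adjusted p = 0.000348) beside -1.29 with Q111 alone. Rpl26, a protein of the large ribosomal subunit, fell by 1.56 ± 0.15 (adjusted p = 5.67e-05) beside -1.73. Its signals were 9.16, 9.05 and 8.85 in double controls and 7.43, 7.38 and 7.58 in double mutants, and RefSeq lists 6 pseudogenes that could share its signal. Ackr1, which binds and removes chemokines on red cells and venules, fell by 1.07 ± 0.10 (adjusted p = 3.99e-05) beside -1.10. Invs, which encodes inversin of the primary cilium, fell by 0.98 ± 0.09 (adjusted p = 2.2e-05) beside -0.97. With receptor loss alone these 4 genes changed by -0.14 to 0.04. Krt12, a keratin of the cornea, was near the level of receptor loss alone instead: it fell by 0.92 ± 0.13 (adjusted p = 0.00216), with single changes of -0.91 for receptor loss and -0.38 for Q111.

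Pttg1 and Acvrl1 were lower on the 3 double mutant arrays than on all 9 others. Pttg1 encodes securin, which holds back the separation of sister chromatids until anaphase. Its signals were 7.98, 7.93 and 7.99 in double controls and 6.5, 5.99 and 6.18 in double mutants. The 6 arrays with 1 change alone ranged from 7.80 to 8.17. The change was -1.74 ± 0.12 (3.34-fold lower, adjusted p = 1.03e-06) and the deviation -1.76 ± 0.17 (adjusted p = 0.000101). Acvrl1 encodes ALK1, a receptor of endothelial cells for bone morphogenetic proteins. It went from 8.54, 8.52 and 8.62 in double controls to 7.28, 7.24 and 7.46 in double mutants, with the single-change arrays at 8.38 to 8.59. The change was -1.23 ± 0.09 (adjusted p = 2.82e-06) and the deviation -1.08 ± 0.13 (adjusted p = 0.00114).

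Of 20 tested markers of vascular cells 18 were lower and 2 higher in double mutants, with a median change of -0.14 against -0.005 over all genes, and Acvrl1 was the only called member. Without double control replicate 1 the median was -0.08. The next by p was Vtn, a pericyte gene, at -0.29 ± 0.11 (adjusted p = 0.479), and Cldn5 and Pecam1 of endothelial cells changed by -0.13 and -0.17. The mean level of the list was 7.91 to 8.01 in double controls and 7.71 to 7.85 in double mutants, and 7.72 to 7.93 with Q111 alone. The part of these cells in the fall of Acvrl1 was not tested.

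Ublcp1, a phosphatase of the proteasome, fell by 1.17 ± 0.11 (adjusted p = 5.24e-05), from 8.42, 8.35 and 8.12 to 7.30, 7.04 and 7.03. Its deviation of -0.86 ± 0.16 (adjusted p = 0.0251) was lost in 8 of the 12 fits without 1 array, with adjusted p up to 0.0872 without double mutant replicate 2. Ublcp1 and Pttg1 are both on chromosome 11 and may share alleles of the mixed background, so they are not separate evidence. Sfrp1, a secreted antagonist of Wnt signals, fell in all 3 groups with a change. Its signals were 7.87, 8.34 and 8.03 in double controls and 7.17, 7.14 and 7.23 in double mutants, a change of -0.90 ± 0.14 (adjusted p = 0.00472) beside -1.02 with Q111 alone and -0.88 with receptor loss alone. Its deviation of 1.0 ± 0.20 (adjusted p = 0.0393) was lost in 9 of the 12 fits, with adjusted p up to 0.137 without replicate 1 of receptor loss alone. Of the 15 largest falls, 3 depended on single arrays for the call of the change. Mzt1, a partner of gamma-tubulin, changed by -1.31 ± 0.27 (adjusted p = 0.0409), Rabl2, a small GTPase of cilia, by -0.98 ± 0.20 (adjusted p = 0.0347) and Klhl1, an actin-binding kelch protein, by -0.91 ± 0.16 (adjusted p = 0.0128). These were lost in 9, 6 and 4 of the 12 fits, with adjusted p up to 0.208 without double control replicate 2, 0.185 without double mutant replicate 1 and 0.114 without double control replicate 3. A second probe set of Mzt1 gave -0.21 ± 0.12 (adjusted p = 0.793), so that its sets disagree.

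**Figure D2:**
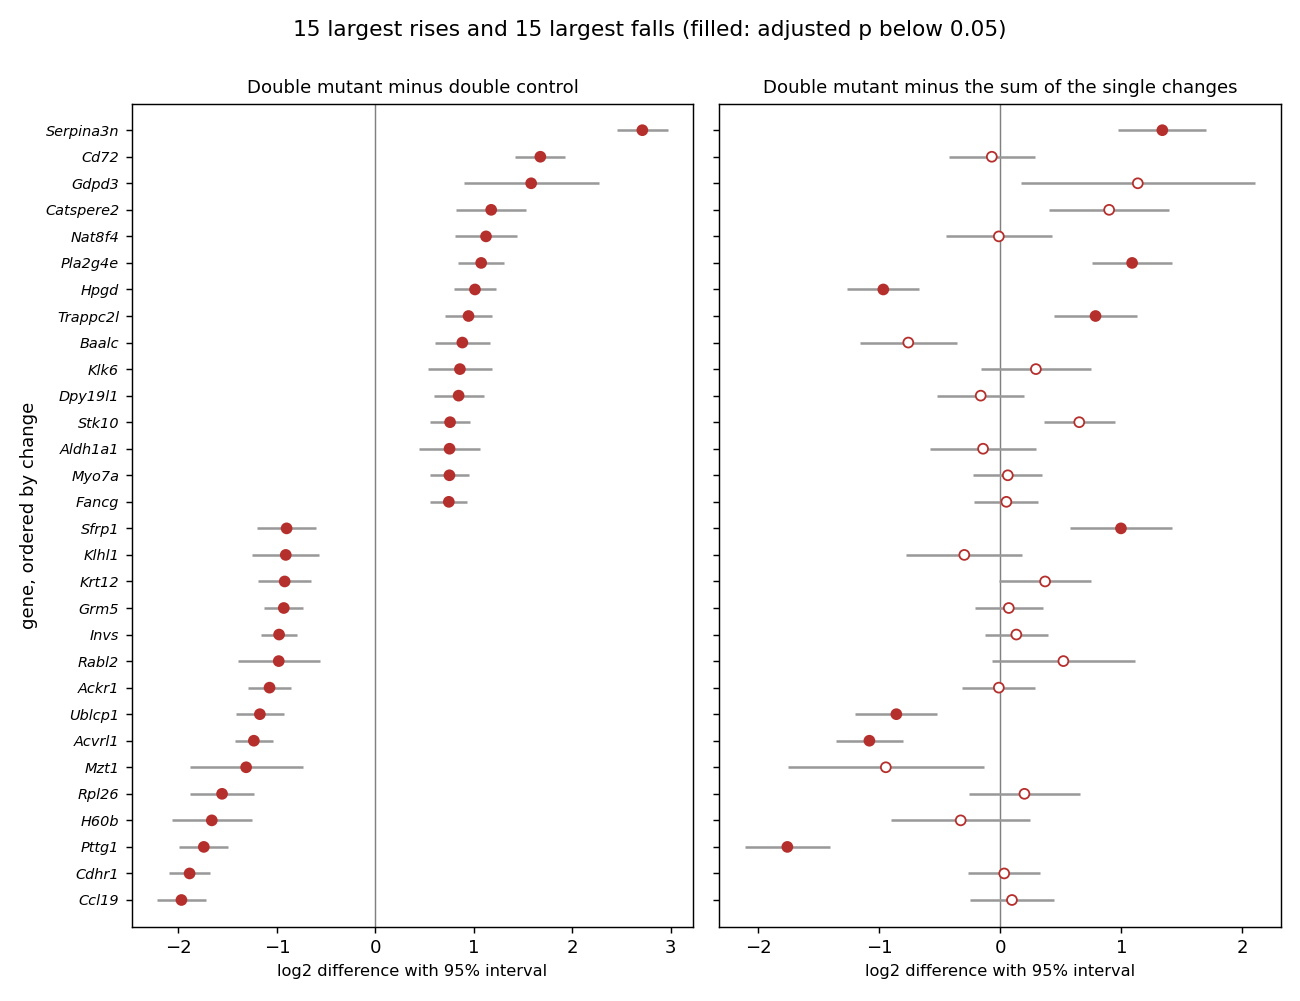
The 15 largest called rises and 15 largest called falls, ordered by the change (left, x axis in log2 units) with their deviation from the sum of the single changes (right). Points are limma estimates, lines unadjusted 95% intervals, and filled points have an adjusted p below 0.05. Deviations are called on both sides of 0, for Serpina3n, Pla2g4e, Trappc2l and Sfrp1 above it and for Pttg1, Acvrl1, Hpgd and Ublcp1 below it.

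The deviation was then tested over all genes. The single changes share the double control arrays with the double mutant change, so they are given as values beside it and no overlap between them was counted. A deviation was called for 73 genes (0.437%), of which 36 were positive and 37 negative. Of the 93 genes with a called change, 77 had no called deviation and 16 had one. In simulated data, the test of the deviation recovered 1% of 1.5-fold effects and 78% of 2-fold effects. The test of the change recovered 63% and 96.5%. A gene without a called deviation is therefore not shown to follow the sum. The median size of the deviation over the 93 was 0.31, with a median standard error of 0.16, against 0.10 over all genes. In 10 of the 16 the double mutant went beyond the sum of the single changes, and in 6 it fell short of it. The count of 73 fell to 44 and 40 without double control replicates 2 and 3, to 34 without replicate 1 of receptor loss alone, to 42 without replicate 1 of Q111 alone, and to 46, 47 and 45 without double mutant replicates 1, 2 and 3. Of the 33 genes described before the closing section for a called deviation, 15 kept it whichever 1 array was left out. The unmoderated model kept 8 of the 33 and lost 25, and the 8 were Dnah6, Cfap54, Slc6a16, Nt5dc3, Pttg1, Acvrl1, Hpgd and Crispld1.

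The 16 include 6 genes that were outside the rule for named genes and were picked after their values were seen. Impg1, a proteoglycan of the retinal matrix, fell by 0.90 ± 0.13 (adjusted p = 0.00266) with a deviation of -1.30 ± 0.18 (adjusted p = 0.00347). Its double mutant signals of 5.47, 5.48 and 5.53 were below the level of the filter, so this fall has no exact size. Slc15a2, the peptide transporter PEPT2 of astrocytes and choroid plexus, fell from 8.76, 8.84 and 8.69 to 8.07, 7.89 and 7.82, by 0.84 ± 0.12 (adjusted p = 0.00207). With Q111 alone it changed by -1.04 and with receptor loss alone by -0.75, and the deviation of 0.95 ± 0.16 (adjusted p = 0.0165) was lost in 4 of the 12 fits without 1 array, up to 0.0685 without replicate 1 of receptor loss alone. Crispld1 and Mcmdc2 fell by 0.58 ± 0.09 and 0.70 ± 0.10 (adjusted p = 0.00315 and 0.00237), where the sums were 0.03 and -0.02, and the double mutant level of Mcmdc2 was below that of the filter. Fndc1 and Fut10 changed by 0.59 ± 0.10 and 0.62 ± 0.11 (adjusted p = 0.012 and 0.0206), less than the sums of 1.30 and 1.48. The deviations of Crispld1, Mcmdc2, Fndc1 and Fut10 had adjusted p of 0.0408, 0.0453, 0.0453 and 0.0279. They were lost in 12, 11, 11 and 9 of the 12 fits, up to 0.147 without double control replicate 3, 0.15 without double mutant replicate 1, 0.161 without replicate 1 of receptor loss alone and 0.0838 without double control replicate 2. The calls of the changes of Fndc1 and Fut10 were lost in 2 and 5 fits, up to 0.0866 and 0.127, both without double mutant replicate 1.

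Most called deviations came from genes without a called change. Of the 73, 57 had no called change in the double mutants, and in 44 of these the change was below 0.25 in size. In 28 of the 73 the 6 arrays with 1 change alone lay wholly on one side of the 6 double control and double mutant arrays, which held for 61 of all 16721 genes (0.365%); the deviation is computed from the same arrays, so this count describes the pattern and supports nothing.

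Dnah6, a heavy chain of axonemal dynein that drives motile cilia, had the largest deviation. Its signals were 8.45, 8.72 and 8.87 in double controls and 8.78, 8.70 and 8.35 in double mutants. With receptor loss alone they were 6.00, 6.09 and 5.96, and with Q111 alone 6.07, 6.42 and 6.30. Each single change was thus a fall, with values of -2.66 and -2.42, while the double mutants differed from the controls by -0.07 ± 0.13 (adjusted p = 0.976). The deviation was 5.01 ± 0.19 (adjusted p = 1.04e-09). Cfap54, a protein of the ciliary central apparatus, had the opposite pattern. It stood at 7.87, 8.08 and 7.74 in double controls and 7.92, 7.64 and 7.47 in double mutants, but at 8.98, 9.05 and 9.48 with receptor loss alone and 9.42, 9.66 and 9.45 with Q111 alone. The deviation was -3.10 ± 0.21 (adjusted p = 1.65e-06). Cfap54 and Lta4h, described above, lay within 4 tested genes on chromosome 10, so their deviations are not separate evidence.

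Of 44 tested genes of motile cilia and the axoneme, 13 were higher and 31 lower in double mutants, the median change was -0.06, and 0 were called in limma, 1 at an unadjusted p below 0.05 and 0 in the unmoderated model. Without double control replicate 1 the median was 0.0093, with 23 higher and 21 lower. Cfap46 was the 1 member called with array weights and with the interquartile range of each array as a covariate. No deviation among them was called other than those of Dnah6 and Cfap54. The other probe sets of Dnah6 changed by 0.02 and -0.01 in double mutants, and that of Cfap54 by -0.27 ± 0.15 (adjusted p = 0.796 in limma). These are changes from the double control, and the deviations of these sets are not reported here. They therefore do not bear on the deviations of Dnah6 and Cfap54. Markers of ependymal cells, which carry motile cilia, had a mean level of 6.61 to 6.97 in double controls and 6.68 to 6.84 in double mutants, 6.76 to 6.81 with receptor loss alone and 6.73 to 6.89 with Q111 alone. These ranges overlapped. The Dnah6 signals of the groups with 1 change alone lay below all others. The part of ependymal cells in the Dnah6 and Cfap54 patterns was not tested.

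**Figure D3:**
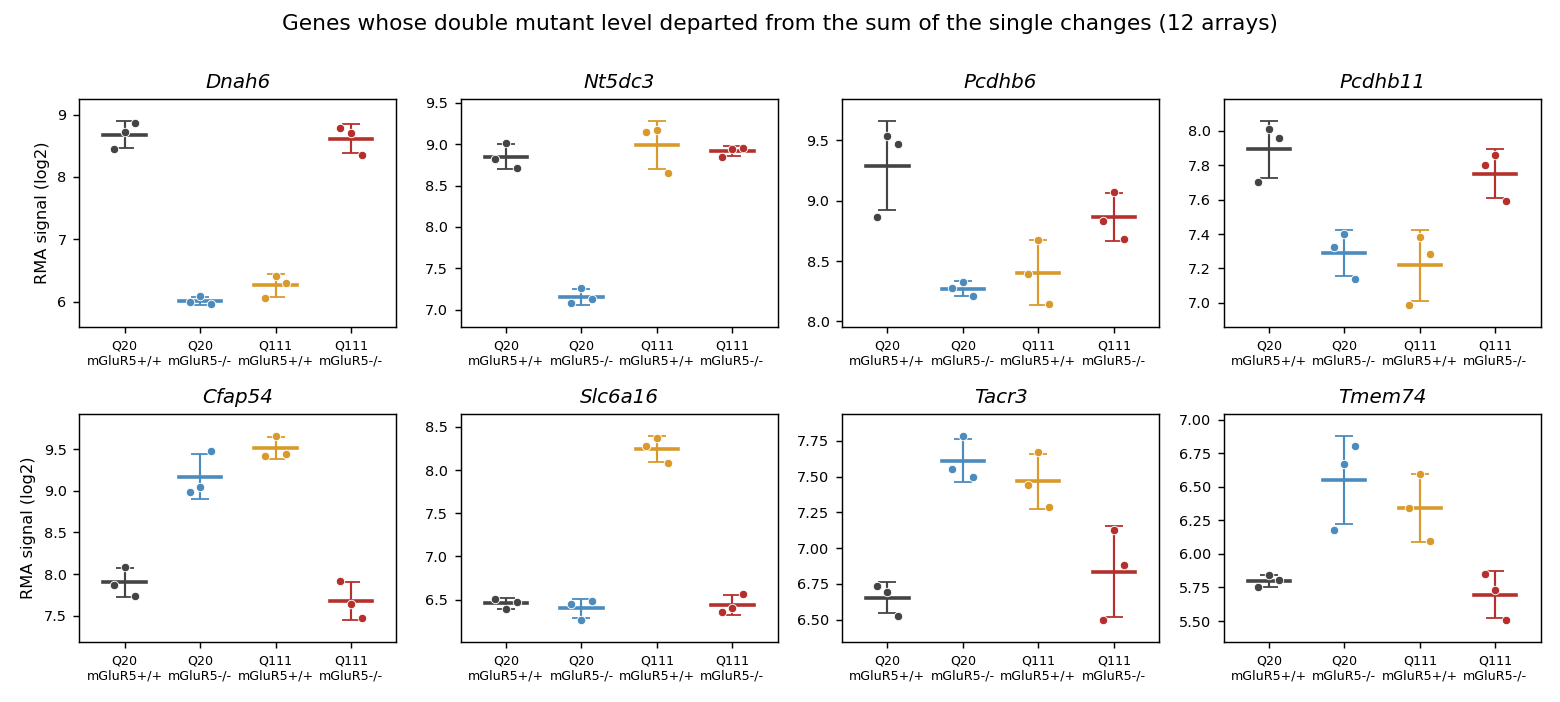
Log2 signal (y axis) of 8 genes with a called deviation, in the 3 arrays of each group (x axis). Points are arrays, the thick line is the group mean and the bar 1 SD. In Dnah6, Pcdhb6 and Pcdhb11 both middle groups are low, in Cfap54, Tacr3 and Tmem74 both are high, and in Nt5dc3 and Slc6a16 only 1 of them departs.

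Further deviations involved 1 or both of the single changes. Slc6a16, an orphan transporter of the neurotransmitter transporter family, had signals of 8.28, 8.37 and 8.08 with Q111 alone, whereas the other 9 arrays lay between 6.27 and 6.57. Its deviation was -1.74 ± 0.14 (adjusted p = 2.31e-05). Nt5dc3, of the 5′-nucleotidase domain family, was low with receptor loss alone only, at 7.08, 7.27 and 7.12, against 8.65 to 9.17 in the other 9 arrays, and deviated by 1.62 ± 0.18 (adjusted p = 0.000656). AI506816, a locus without a known role, was above the filter level with Q111 alone only, at 6.10, 6.80 and 6.80. Its deviation of -2.64 ± 0.28 (adjusted p = 0.000348) thus has no exact size. The gene passed the filter through the same group that gives the deviation, so its p-value is not independent of the filter. Tmem74, linked to autophagy, deviated by -1.40 ± 0.22 (adjusted p = 0.00825), with double control and double mutant means of 5.80 and 5.70. These means were also below the filter level, so its p-value has the same limit. Called deviations of 3 more genes were lost when single arrays were left out. They were Aldh7a1, which breaks down lysine, at -1.56 ± 0.27 (adjusted p = 0.0163, lost in 3 of 12 fits, up to 0.0622), Rpl34 of the ribosome at -1.42 ± 0.25 (0.0181, lost in 5, up to 0.0703) and Tnni1, slow troponin I, at 1.56 ± 0.28 (0.0233, lost in 6, up to 0.0752). The highest values came without replicate 1 of receptor loss alone for Aldh7a1 and Rpl34 and without double mutant replicate 3 for Tnni1. RefSeq lists 2 pseudogenes of Rpl34.

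Receptors for neuropeptides also had called deviations. Tacr3, the receptor of neurokinin B, had signals of 6.73, 6.69 and 6.53 in double controls and 6.5, 7.13 and 6.88 in double mutants. It was higher with receptor loss alone (7.55, 7.78 and 7.50) and with Q111 alone (7.44, 7.67 and 7.28), and deviated by -1.59 ± 0.21 (adjusted p = 0.00153). Trhr, the receptor of thyrotropin-releasing hormone, deviated by 1.34 ± 0.27 (adjusted p = 0.0453), with both single-change groups below the filter level. Its p-value is therefore not independent of the filter either. The call was lost in 9 of the 12 fits, up to 0.147 without double control replicate 3. Trhr was next to Tmem74 among tested genes on chromosome 15, so their deviations are not separate evidence. Of 29 tested neuropeptide and receptor genes, 0 were called in the double mutants by limma, 3 had an unadjusted p below 0.05 and 0 were called in the unmoderated model. The median change was 0.01, and -0.04 and -0.02 without double control and double mutant replicate 3. Npy, the neuropeptide with the smallest p, changed by 0.36 ± 0.10 (adjusted p = 0.153, and 0.0335 with the interquartile range covariate). Trhr, at -0.55 ± 0.19 in double mutants (0.394), was called with array weights (0.0196).

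The beta protocadherins, cell surface proteins of 1 gene cluster on chromosome 18 that give neurons distinct adhesive identities, held the most called deviations of any list. Of 22 tested members 7 deviated in limma, beside 0.437% of all genes, and all upward: Pcdhb2, Pcdhb3, Pcdhb4, Pcdhb6, Pcdhb7, Pcdhb8 and Pcdhb11, with values from 0.79 to 1.48. This list too was chosen with earlier results of these data known, so the share is no test of it. Pcdhb6 had signals of 8.86, 9.54 and 9.47 in double controls and 8.83, 9.07 and 8.68 in double mutants. They were 8.27, 8.33 and 8.21 with receptor loss alone and 8.39, 8.68 and 8.14 with Q111 alone. Its deviation was 1.48 ± 0.24 (adjusted p = 0.0101 in limma and 0.196 in the unmoderated model). Pcdhb11 was at 7.71, 8.01 and 7.96 in double controls, 7.80, 7.86 and 7.59 in double mutants and 6.99 to 7.40 in the 6 arrays with 1 change alone, a deviation of 1.14 ± 0.18 (adjusted p = 0.008 in limma and 0.115 in the unmoderated model). None of the 7 deviations was called in the unmoderated model.

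The other 5 calls depended on single arrays. They were lost in 3 of the 12 fits for Pcdhb2, 7 for Pcdhb3, 6 for Pcdhb4, 10 for Pcdhb7 and 9 for Pcdhb8. The highest adjusted p was 0.0622 for Pcdhb2 without double mutant replicate 1, 0.0806 for Pcdhb3 and 0.0839 for Pcdhb4 without replicate 1 of receptor loss alone, and 0.142 for Pcdhb7 and 0.126 for Pcdhb8 without double control replicate 3. In the double mutants themselves 7 of the 22 were higher and 15 lower, with a median of -0.14 that was -0.04 without double mutant replicate 3, and 0 were called in limma, 7 at an unadjusted p below 0.05 and 0 in the unmoderated model. Pcdhb8, at 0.55 ± 0.13 (adjusted p = 0.0806), was called after quantile normalization (0.0231), with the interquartile range covariate (0.0124) and with array weights (0.0182), and Pcdhb6 with array weights (0.0284). These genes are near copies of each other, so probes may read more than 1 of them and their calls are not separate evidence.

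Genes that define striatal neurons came next. Of 39 tested genes of projection neuron identity, 14 were higher and 25 lower, with a median change of -0.03, and 0 were called in limma, 3 at an unadjusted p below 0.05 and 0 in the unmoderated model. Single arrays moved this median between -0.0747 (10 higher, 29 lower) without double control replicate 1 and 0.0008 (21 higher, 18 lower) without double mutant replicate 3. Rxrg, a retinoid receptor, had the smallest p among them at -0.27 ± 0.09 (adjusted p = 0.344), followed by Homer1, a scaffold of group I glutamate receptors, at -0.30 ± 0.12 (adjusted p = 0.542). The dopamine receptors Drd1 and Drd2 changed by 0.09 ± 0.10 and 0.03 ± 0.08 (adjusted p = 0.954 and 0.981). Direct-pathway markers (11 tested) and indirect-pathway markers (11 tested) had medians of -0.12 and 0.03 and 0 called members each in limma and in the unmoderated model, with 1 each at an unadjusted p below 0.05. The smallest p belonged to Eya1 (0.27 ± 0.11) and Ebf1 (-0.24 ± 0.12) in the direct pathway and to Plxdc1 (0.31 ± 0.11) and Grik3 (-0.12 ± 0.09) in the indirect pathway. Plxdc1 was called with the interquartile range covariate (adjusted p = 0.0261) and with array weights (0.0488), and Eya1 with array weights (0.0476); the covariate called 1.72% of all genes. The indirect-pathway median turned to -0.0062 and -0.0193 without double control replicates 1 and 3.

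Among the other metabotropic glutamate receptors, Grm7 fell. This presynaptic receptor had signals of 9.996, 10.13 and 10.24 in double controls and 9.51, 9.54 and 9.44 in double mutants, a change of -0.62 ± 0.09 (adjusted p = 0.00361). Each single change was -0.17 and did not pass the test, and the deviation of -0.28 ± 0.13 did not either (adjusted p = 0.93). Grm8, of the same subgroup, changed by 0.44 ± 0.12 (adjusted p = 0.146, and 0.0428 with the interquartile range covariate), and the other 4 tested receptors by -0.16 to 0.06. Of 33 tested genes of group I receptor signalling 0 were called in limma, 5 at an unadjusted p below 0.05 and 0 in the unmoderated model. The calcium-activated kinase Ptk2b changed by 0.26 ± 0.09 (adjusted p = 0.408), and Pick1, a scaffold that binds glutamate receptors, by -0.29 ± 0.10 (adjusted p = 0.413). Array weights called both (adjusted p = 0.0395 and 0.0409) and Prkca, and the covariate called Ptk2b (0.0463). Ionotropic glutamate receptors (16 tested) and GABA genes (16 tested) had 0 called members each in limma and in the unmoderated model, 1 each at an unadjusted p below 0.05 and medians of -0.02 and -0.03, which turned to 0.0025 and 0.02 with the interquartile range as a covariate. The median of the GABA genes was also 0.0067 without double control replicate 2. Their smallest p belonged to Grin2b (-0.27 ± 0.10), Grik1 (0.22 ± 0.11), Gabbr2 (0.24 ± 0.10) and Gabrg1 (-0.28 ± 0.15).

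**Figure D4:**
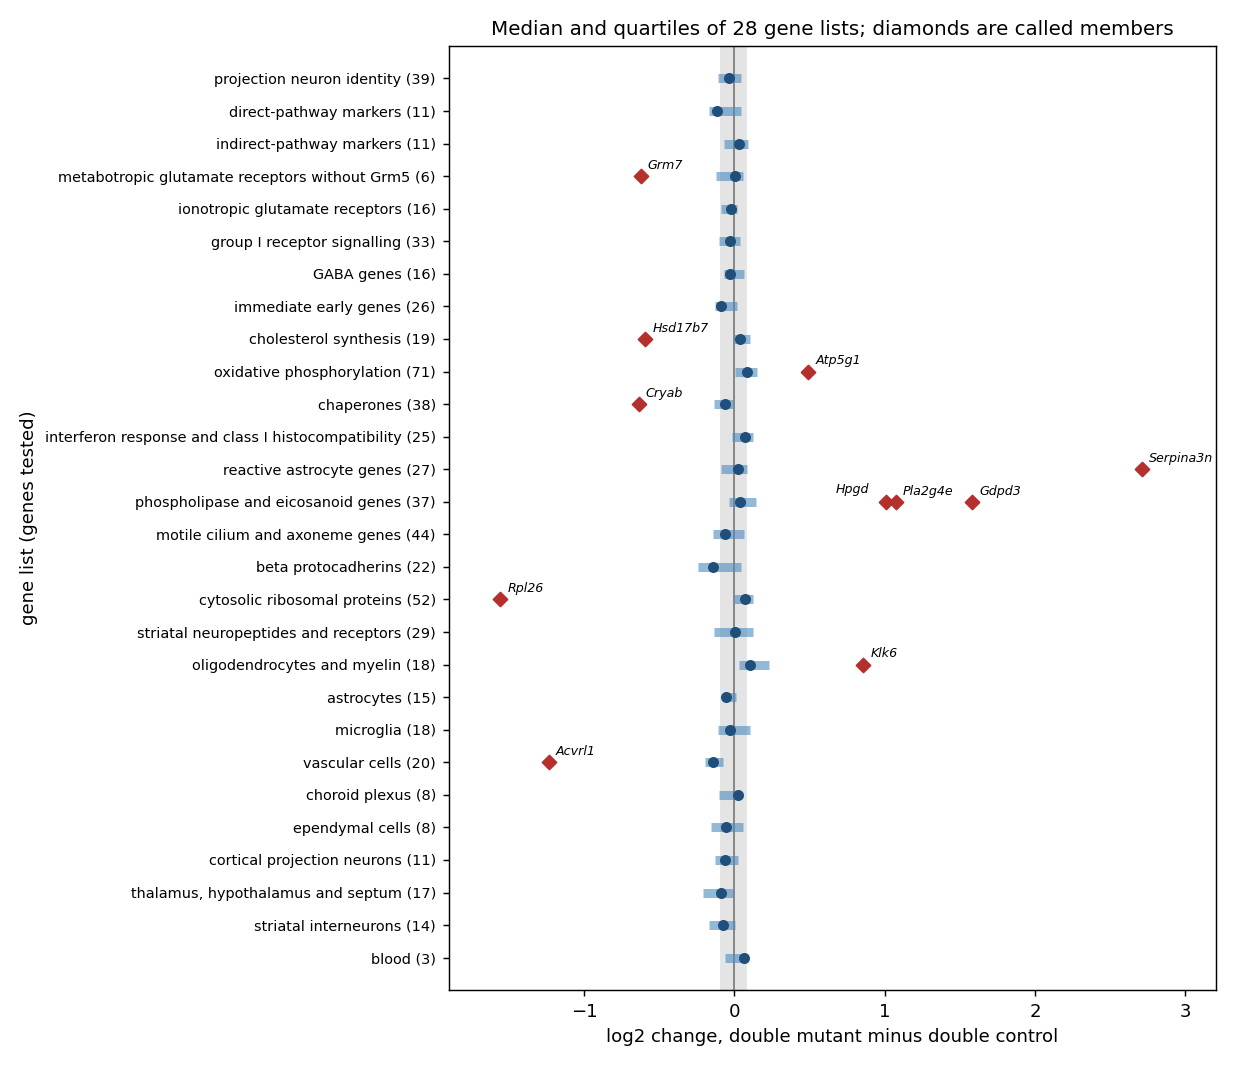
Median (dark point) and quartiles (blue bar) of the log2 change from double control to double mutant (x axis) in 28 gene lists (y axis, number of genes tested in brackets). The grey line and band are the median and quartiles of all tested genes, and diamonds are called members. List medians lie between -0.14 and 0.11, while the called members stand outside their own list's quartiles.

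The next lists cover cell metabolism and stress. Their calls and medians are those of limma unless stated. Of 71 tested subunits of oxidative phosphorylation, 55 were higher and 16 lower, with a median of 0.08. The called member was Atp5g1, a c subunit of ATP synthase, at 0.49 ± 0.10 (adjusted p = 0.0297). This call was lost in 8 of the 12 fits without 1 array, up to 0.176 without double control replicate 3, and its second probe set gave 0.26 ± 0.10 (adjusted p = 0.442). Ndufc2 of complex I changed by 0.38 ± 0.09 (adjusted p = 0.116), and was called with an intensity trend (0.0256), after median centring (0.0313), with array weights (0.0235) and with the interquartile range covariate (0.00718). That covariate called 4 members of the list. Of 52 cytosolic ribosomal protein genes 38 were higher, with a median of 0.07, and Rpl26 was the called member, in the opposite direction. The median was 0.04 without double control replicate 3, and the covariate and the array weights each called 4 members. Of 38 chaperones 30 were lower, with a median of -0.06, which was -0.0125 with 22 lower and 16 higher without double control replicate 2. Cryab, a small heat shock protein, was the called member at -0.64 ± 0.11 (adjusted p = 0.0096), from 10.02, 9.93 and 10.07 to 9.42, 9.38 and 9.30, beside -0.54 with Q111 alone. It was lost in 2 of the 12 fits, up to 0.0705 without double control replicate 3. Hspe1, the mitochondrial co-chaperone, changed by 0.41 ± 0.14 (adjusted p = 0.358), and was called with the covariate (0.0236) and with array weights (0.0436).

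Of 19 cholesterol synthesis genes 14 were higher, with a median of 0.04 that was 0.0024 without double mutant replicate 2, and the called member Hsd17b7 went the other way at -0.59 ± 0.12 (adjusted p = 0.0401), a call lost in 8 of the 12 fits, up to 0.203 without double control replicate 2. Fdps of the same pathway changed by 0.14 ± 0.08 (adjusted p = 0.791). Of 26 immediate early genes, which neurons induce with activity, 8 were higher and 18 lower with a median of -0.09. Without double mutant replicate 1 there were 13 higher and 13 lower with a median of 0.0002, and with the interquartile range covariate the median was -0.03. In limma 0 of them were called, with 6 at an unadjusted p below 0.05 and 0 in the unmoderated model. Npas4 and Dusp1 changed by -0.47 ± 0.15 and -0.45 ± 0.16 (adjusted p = 0.315 and 0.388). Array weights called both (0.0478 and 0.0443) and the covariate called Dusp1 (0.0466). Of 25 tested genes of the interferon response and class I histocompatibility 18 were higher and 7 lower, with a median of 0.07, and 0 were called in limma, 1 at an unadjusted p below 0.05 and 0 in the unmoderated model. Ifit1, an antiviral protein, changed by 0.52 ± 0.12 (adjusted p = 0.0821) and Psmb8, an immunoproteasome subunit, by 0.20 ± 0.10 (adjusted p = 0.776). Ifit1 was called with array weights (0.0431) and with the covariate (0.0406). The median of the list was 0.04 without double mutant replicate 3.

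Markers of other cell types were read for the makeup of the samples. Of 18 oligodendrocyte and myelin genes 14 were higher, with a median of 0.11. The mean level of the list was 9.43 to 9.67 in double controls and 9.71 to 9.77 in double mutants, without overlap. With receptor loss alone it was 9.52 to 9.72 and with Q111 alone 9.56 to 9.81, which overlapped both. The levels of the vascular, oxidative phosphorylation, reactive astrocyte and phospholipase lists did not overlap between double controls and double mutants either. These were among 28 lists compared, and 14.2% of all single genes did not overlap. The mean of the reactive astrocyte list includes the large rise of Serpina3n, and that of the phospholipase list those of Pla2g4e, Hpgd and Gdpd3. Their median changes were 0.03 and 0.04, so these gaps do not show a shift of the whole list. Without double control replicate 2 the oligodendrocyte median was 0.07, with 12 higher and 6 lower. Klk6, described above, was the called member, and Mag, a myelin adhesion protein, changed by 0.35 ± 0.11 (adjusted p = 0.271, and 0.034 with array weights). The part of these cells in the rise of Klk6 was not tested. Microglia markers (18 tested) had a median of -0.03 and 0 called members in limma and in the unmoderated model, with 3 at an unadjusted p below 0.05. Siglech changed by 0.41 ± 0.09 (adjusted p = 0.0747) and Fcrls by -0.97 ± 0.25 (adjusted p = 0.131), in opposite directions. Siglech was called after median centring (0.037), after quantile normalization (0.0228), with the median filter (0.0442), with the covariate (0.0138) and with array weights (0.0405), and Fcrls with array weights (0.00399). The median of the list turned to 0.0041 without double mutant replicate 1. Markers of thalamus, hypothalamus and septum (17 tested) had a median of -0.09, cortical projection neurons (11) -0.06, ependymal cells (8) -0.05, striatal interneurons (14) -0.07, choroid plexus (8) 0.02 and blood (3) 0.06. The medians of choroid plexus and blood turned to -0.07 and -0.03 with the interquartile range as a covariate. None of these 6 lists had a called member in limma or in the unmoderated model. At an unadjusted p below 0.05 there were 3 in the thalamic list, 3 among interneuron markers and 0 in the other 4. Array weights called Zic1 of the thalamic list (0.0358) and the covariate Npy of the interneurons (0.0335). Without double control replicate 1 the medians were -0.03 for the thalamic list, -0.03 for interneurons, 0.0132 for cortical neurons and 0.0233 for ependymal cells, and those of choroid plexus and blood also changed sign with single arrays left out.

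Some called genes lay close together on the chromosomes. Of the 92 called genes with a known position, 18 lay within 5 tested genes of a further called gene, and they formed 8 runs. A run on chromosome 4 held Dctn3, Ccl19 and Fancg within 8 tested genes, of which the first 2 fell and Fancg rose. Cd72 is on chromosome 4 too, outside this run. Its rise followed the Q111 allele as the fall of Ccl19 did, so the limit on neighbours given below holds for Cd72 as well. Dctn3, a dynactin subunit, had signals of 9.66, 9.81 and 9.61 in double controls and 8.88, 8.94 and 9.02 in double mutants, a change of -0.75 ± 0.12 (adjusted p = 0.00737). It was lost in 1 of the 12 fits, at 0.054 without double control replicate 2. A run on chromosome 14 held Klhl1, Mzt1 and Klf12, all lower. Klf12, a zinc finger repressor, changed by -0.53 ± 0.11 (adjusted p = 0.0371), a call lost in 7 of the 12 fits, up to 0.2 without double mutant replicate 3. By chromosome, the largest shares of tested genes called were 15 of 941 on chromosome 9 (1.59%) and 8 of 588 on chromosome 14 (1.36%), beside 0.556% of all genes. Neighbours of 1 chromosome can share alleles of the mixed background, so these genes are not separate evidence.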

How the data were processed

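Striatal RNA of 12 arrays was read on Affymetrix whole-transcript arrays, per the labels' protocols. The deposited values are on a log2 scale, and RMA and Partek are named per the submitters' processing notes. The series text names Partek Genomics Suite 6.5. RMA corrects background, equalizes arrays and summarizes each probe set, which can reduce array-wide differences. The genome build behind the probe sets is not given in the sources used here.

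Of 35556 probe sets, 21789 had 1 gene symbol, 1621 several and 12146 none. Each of 19938 genes was represented by its set of highest mean over the 12 arrays, and 16721 lay above the 25th percentile in at least 3 arrays. RefSeq names on GRCm38.p6 gave gene order (91 sets unmatched).

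limma 3.58.1 in R 4.3.3 fitted 1 mean per group over all 12 arrays (8 residual degrees of freedom), with two-sided tests of the double mutant minus the double control and of the deviation, and Benjamini-Hochberg adjustment over the 16721 genes. Genes were called at an adjusted p below 0.05. The fit was tested on simulated data. Errors after ± are standard errors of limma for changes and deviations, and SD elsewhere. With 3 arrays a group, the number of arrays limits the precision.

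Named genes were Grm5 and Htt, the 15 largest called rises and falls, the 8 largest called deviations each way, called list members (or those of smallest p), called runs of 3 and called neighbours of the targeted genes. Predicted genes, pseudogenes, olfactory and vomeronasal receptors and small RNA genes were counted and not named. The 28 lists held 725 names, 627 of them tested. The members, lists and rule were chosen with earlier results of these data known.

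Alternatives covered moderation, the intensity trend, a fold minimum, a replicate block, array weights, scaling, the filter, the probe set, the arrays fitted and the series text's criteria. Same-numbered arrays were checked for pairing. Their departures from the group mean correlated over 0.1 in 11 of 18 pairs, with a range of -0.144 to 0.567. Of 12 arrays, 9 correlated best with an array of their own number. The labels do not say what the numbers mark, so the main fit did not pair by them. Any batch shared by a number would remain in its residual spread.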

Additional observations from a re-analysis of the deposited data

Results flagged for a closer look

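Each value below is the deviation of the double mutant change from the sum of the single changes, on the log2 scale, and each was noticed because limma's test of that difference passed at an adjusted p below 0.05.

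Genes whose double mutant change was called and went past the sum were Serpina3n (1.34), Pla2g4e (1.09) and Trappc2l (0.79) among the rises, and Pttg1 (-1.76), Impg1 (-1.30), Acvrl1 (-1.08), Ublcp1 (-0.86), Mcmdc2 (-0.68) and Crispld1 (-0.61) among the falls. Pttg1 and Ublcp1 are on the same chromosome and are not separate evidence, as described above. Called changes that stopped short of the sum were the rises of Hpgd (-0.97), Fut10 (-0.86) and Fndc1 (-0.71) and the falls of Sfrp1 (1.0) and Slc15a2 (0.95).

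The other genes had no called double mutant change. Downward deviations were those of Cfap54 (-3.10), AI506816 (-2.64), Slc6a16 (-1.74), Tacr3 (-1.59), Aldh7a1 (-1.56), Rpl34 (-1.42) and Tmem74 (-1.40). The tests of AI506816, Tmem74 and Trhr are not independent of the signal filter, as described above. Upward deviations were those of Dnah6 (5.01), Nt5dc3 (1.62), Tnni1 (1.56), Trhr (1.34) and Lta4h (1.30). The beta protocadherins were also upward, with Pcdhb6 (1.48), Pcdhb2 (1.48), Pcdhb3 (1.45), Pcdhb11 (1.14), Pcdhb7 (1.02), Pcdhb8 (0.94) and Pcdhb4 (0.79).

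Of these 33 deviations, 15 kept the call with any 1 of the 12 arrays left out and 18 did not. When limma was run without the signal filter, 28 of the 33 kept the call. The 5 lost were Trhr (adjusted p = 0.0548), Crispld1 (0.056), Fndc1 (0.059), Mcmdc2 (0.059) and Trappc2l (0.0592).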

How the results depend on the processing

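For the double mutant against double control, the count of called changes, 93, became 40 in the unmoderated linear model, 23 with limma's test against a 1.2-fold minimum, 143 after quantile normalization, 287 with the interquartile range as a covariate and 222 over all probe sets. The count of called deviations, 73, became 19, 17 and 153 in the unmoderated model, with the fold minimum and with the covariate, and 165 under the series text's criteria of unadjusted p and 1.5-fold. A fit with the replicate block called 215 changes, with all 93 among them, and 107 deviations. It also called Siglech (0.0423), Ifit1 (0.0473), Ndufc2 (0.0406), Pcdhb8 (0.022) and Cfap46 in double mutants. No called gene named before the closing section lost its call under the block. Here 9 of 12 arrays correlated best with arrays of their own number, which is a hint from the data and not the design. Array weights in limma's default method stopped before converging. Weights estimated gene by gene, an alternative chosen after seeing the data, called 434 changes and 326 deviations. When the arrays of lowest and highest interquartile range were dropped, also chosen after seeing the data, 38 deviations were called. With 1 array left out in turn, called changes ranged from 49 to 163 and called deviations from 34 to 69. The share of called changes that were higher was 43.0%, and 27.7% without double control replicate 1. The cause of these differences was not tested. For the named genes, 3067 refitted values kept their side of the threshold and direction, 348 lost the call, 41 gained one and 0 reversed. Among list medians, 8 of the refitted values moved by more than the spread between replicates and 579 did not. Genes near the 25th percentile of signal have bounded folds.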

Other observations

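Several called changes outside the rule for named genes, chosen after their values were seen, kept their call with any 1 array left out. In the unmoderated model Alad, Cbx7 and Car12 lost it (adjusted p = 0.0679, 0.0683 and 0.0786), and none of the 7 passed limma's test against a 1.2-fold minimum. Alad, an enzyme of haem synthesis, had log2 signals of 10.03, 10.09 and 9.93 in double controls and 9.17, 9.04 and 9.22 in double mutants, and fell by 0.88 ± 0.13 (adjusted p = 0.00266 in limma). Its arrays did not overlap, and with Q111 alone it changed by -0.66. Cbx7, a Polycomb protein, fell by 0.86 ± 0.13 (adjusted p = 0.00283) and Car12, a membrane carbonic anhydrase, by 0.77 ± 0.12 (adjusted p = 0.00538). Lingo1, a neuronal inhibitor of myelination, fell by 0.71 ± 0.10 (adjusted p = 0.00308), from 9.38, 9.61 and 9.60 to 8.72, 9.04 and 8.69. Fmn2, an actin nucleator of the formin family, fell by 0.71 ± 0.10 (adjusted p = 0.00253). Among rises, Slc35f3, of a solute carrier family, went from 8.90, 9.16 and 9.08 to 9.68, 9.68 and 9.64, by 0.62 ± 0.09 (adjusted p = 0.00272). Wdfy1, an endosomal protein, rose by 0.64 ± 0.10 (adjusted p = 0.00318).

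Called deviations also lay close together, and the genes named here were likewise chosen after their values were seen. Of the tested genes on chromosome 18, 9 of 419 had one (2.15%), and 7 of these were the beta protocadherins. On chromosome 16 it was 7 of 528 (1.33%), beside 0.437% of all genes. They included Ccdc80, Slc35a5 and Abhd10 within 7 tested genes. Abhd10, a mitochondrial thioesterase, had signals of 7.84, 7.98 and 8.07 in double controls, 7.78, 8.05 and 7.85 in double mutants and 8.40 to 8.80 in the 6 arrays with 1 change alone, a deviation of -1.34 ± 0.16 (adjusted p = 0.00132 in limma). Slc35a5 and Ccdc80 deviated by -0.82 ± 0.14 and 0.72 ± 0.14 (adjusted p = 0.0181 and 0.0292), calls lost in 5 and 9 of the 12 fits without 1 array, up to 0.0703 and 0.113, both without replicate 1 of receptor loss alone. Timmdc1, an assembly factor of complex I on the same chromosome, deviated by -1.29 ± 0.20 (adjusted p = 0.00825, and 0.156 in the unmoderated model, which also lost Slc35a5 and Ccdc80). On chromosome 15, Cpq, a secreted carboxypeptidase, deviated by -1.28 ± 0.16 (adjusted p = 0.00132), and the nearby Matn2, a matrix protein, by 0.89 ± 0.13 (adjusted p = 0.0064), in the opposite direction. Of the genes described earlier, Tmem74 and Trhr were adjacent tested genes on chromosome 15. Cfap54 and Lta4h lay within 4 tested genes on chromosome 10. Neighbours can share alleles of the mixed background, so these genes are not separate evidence.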
